A study of Mus musculus with 12 samples.

Results

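The 9 genes described here encode sensors of microbial and damage molecules and their signalling partners: the Toll-like receptors Tlr1, Tlr2, Tlr3, Tlr4, Tlr7 and Tlr13, the co-receptor Cd14, the adaptor Myd88 and the scavenger receptor Msr1. They were picked by symbol through their Ensembl identifiers, and all 9 were found among the 55487 genes of the deposited tables. RNA had been sequenced from mouse cortex 2 hr after controlled cortical impact (CCI), in which a piston strikes the exposed brain surface. Ipsilateral cortex (the struck side) and contralateral cortex (the opposite side) were sampled from mice labelled CX3CR1cre-er/+, called wt here, and from mice labelled CX3CR1cre-er/+ STING fl/fl, called cKO. Each of the 4 groups of genotype and side held 3 libraries. All animals therefore carried the Cx3cr1 Cre allele and all received the impact, so the contralateral cortex is the only uninjured tissue and it comes from injured animals. Cx3cr1 is active in microglia and in monocytes, so the floxed STING gene is exposed to Cre in those cells. The series description writes the Cre of the floxed animals without the tamoxifen-dependent part, neither source mentions tamoxifen, and age and sex are not given. The labels do not say that the libraries of a group came from separate animals, so the p-values measure only the spread between these libraries, which may be technical.

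Toll-like receptors are membrane proteins that bind conserved molecules of microbes and some molecules released by damaged cells. Those at the cell surface (Tlr1, Tlr2, Tlr4) bind lipids and lipoproteins, and those in endosomes (Tlr3, Tlr7, Tlr13) bind RNA. Most of them signal through the adaptor Myd88 to IRAK kinases, NF-kB and MAP kinases, whereas Tlr3 signals through the adaptor Ticam1 (TRIF) and Tlr4 uses both. In brain, microglia carry most of these receptors, and neutrophils and monocytes that enter after injury carry several of them.

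Total counts ran from 7958931 in cKO ipsilateral library 3 to 33567194 in cKO contralateral library 1. A count of 3, taken as the floor, was worth 0.377 CPM (counts scaled to library size) in the shallowest and 0.0894 CPM in the deepest library, and covers counting error only. cKO ipsilateral library 3 also stood apart on the second principal component (14.5% of variance) and held 10548 TPM (transcript abundance corrected for length) of the brain RNA Bc1, against 83028 to 167036 TPM elsewhere. wt contralateral library 3 lay farthest out on the third component. Results that rest on these libraries are given with and without them. Tmem173, the gene for STING, averaged 1.24 ± 0.635 CPM (SD, n = 3) in cKO and 2.76 ± 0.367 CPM in wt contralateral cortex, and the permutation test (exact, two-sided) returned p = 0.1, the smallest that 3 against 3 allows. On the ipsilateral side it averaged 1.58 ± 0.756 CPM in cKO and 2.91 ± 0.699 CPM in wt (exact permutation p = 0.2). Its log2 genotype difference in edgeR was −1.16 ± 0.35 (SE) contralaterally, with an adjusted p of 1, or of 0.00724 with no filter on low counts. Summed markers of cortical neurons were between 4879 and 6107 CPM in every library, with the 3 cKO ipsilateral libraries (4879 to 5055 CPM) below all the others.

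Cd14, Tlr2 and Tlr13 were higher on the injured side in both genotypes. In edgeR's quasi-likelihood fit, with p adjusted by Benjamini-Hochberg and a threshold of 0.05, 4 of the 9 genes were higher in ipsilateral than in contralateral cortex in wt (Cd14, Tlr2, Tlr13 and Myd88), and 4 of 9 in cKO (Cd14, Tlr2, Tlr13 and Msr1). Over all 16836 genes tested, 2.73% were called higher in wt and 2.56% in cKO, and 0.184% and 0.178% were called lower. The number called over all genes depended on single libraries. In wt, 491 genes were called with all libraries, 861 without contralateral library 3, 250 without contralateral library 2, and 281 and 310 without ipsilateral libraries 2 and 3. In cKO, 461 were called with all libraries, 280 without contralateral library 1 and 277 without ipsilateral library 2. None of the 9 was called lower. The median log2 difference of the 9 was 0.36 in wt and 0.50 in cKO, beside −0.01 over all genes in both. All 9 genes had passed the filter on low counts. Tlr1, Tlr3, Tlr4 and Tlr7 were called in neither genotype.

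With all libraries, Cd14 gave the largest injury difference among the 9 in both genotypes. Without cKO contralateral library 1, Tlr2 exceeded it in cKO, at 4.27 against 3.70. It encodes a surface protein without a signalling domain that hands lipopolysaccharide to Tlr4 and helps Tlr2 and the endosomal receptors bind their ligands. The gene (ENSMUSG00000051439, chromosome 18, 36725067 to 36726798, minus strand, mm10 with GENCODE M21 annotation, as for all positions here) held 2.55, 4.32 and 2.51 CPM in wt contralateral libraries 1 to 3 and 34.2, 37.2 and 27.6 CPM in the ipsilateral ones. In cKO the contralateral libraries held 3.17, 3.45 and 1.95 CPM and the ipsilateral ones 40, 39.2 and 25.9 CPM. Every ipsilateral library was thus far above every contralateral library, and the genotypes overlapped on each side. The log2 difference was 3.39 ± 0.23 (SE, adjusted p = 3.01e-07) in wt and 3.62 ± 0.23 (adjusted p = 1.6e-07) in cKO. These rest on 67 to 125 counts per wt contralateral library and 670 to 867 per wt ipsilateral library.

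The lipopolysaccharide receptor Tlr4 itself (ENSMUSG00000039005, chromosome 4, 66827584 to 66930284, plus strand) was not called in either genotype. Its wt libraries held 0.656, 0.898 and 1.5 CPM on the contralateral side and 0.615, 0.773 and 0.741 CPM on the ipsilateral side. In cKO they held 0.822, 1.58 and 0.524 CPM contralaterally and 0.468, 1.36 and 1.37 CPM ipsilaterally. The sides overlapped in both genotypes. With 11 to 40 counts per library the log2 difference was −0.51 ± 0.46 in wt (95% interval −1.5 to 0.48, adjusted p = 0.673) and 0.05 ± 0.47 in cKO (−0.96 to 1.06, adjusted p = 0.982). Changes within these intervals were therefore not excluded. Ly96 encodes MD-2, the subunit of Tlr4 that binds lipopolysaccharide, and was named after its values were seen. Its log2 difference was 0.62 ± 0.39 in wt (adjusted p = 0.503) and −0.19 ± 0.46 in cKO (adjusted p = 0.896).

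Tlr2, the receptor for bacterial lipoproteins, also rose in both genotypes. The gene lies on chromosome 3 (ENSMUSG00000027995, 83836272 to 83841767, minus strand). Contralateral libraries 1 to 3 held 1.07, 1.14 and 1.72 CPM in wt and 2.03, 0.682 and 0.619 CPM in cKO. The ipsilateral libraries held 11.7, 10.6 and 7.08 CPM in wt and 16.4, 11.6 and 9.08 CPM in cKO, all above every contralateral library. The log2 difference was 2.90 ± 0.35 in wt (adjusted p = 0.000109) and 3.40 ± 0.36 in cKO (adjusted p = 2.51e-05). The cKO value depended on contralateral library 1, the highest of its group: without it the difference was 4.27 (adjusted p = 8.05e-06).

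Tlr1, which pairs with Tlr2 on triacylated lipoproteins, was close to the floor (ENSMUSG00000044827, chromosome 5, 64924679 to 64933563, minus strand). It held 12, 17 and 16 counts in wt contralateral and 10, 7 and 11 in wt ipsilateral libraries. In cKO it held 10, 6 and 6 counts contralaterally and 13, 3 and 0 ipsilaterally. The sides overlapped in both genotypes, and the log2 difference was −0.45 ± 0.48 in wt (adjusted p = 0.733) and −0.16 ± 0.59 in cKO. Tlr6 is a similar neighbouring gene, and the authors' counting divides reads between such genes, so the split between Tlr1 and Tlr6 is uncertain.

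**Figure D1:**
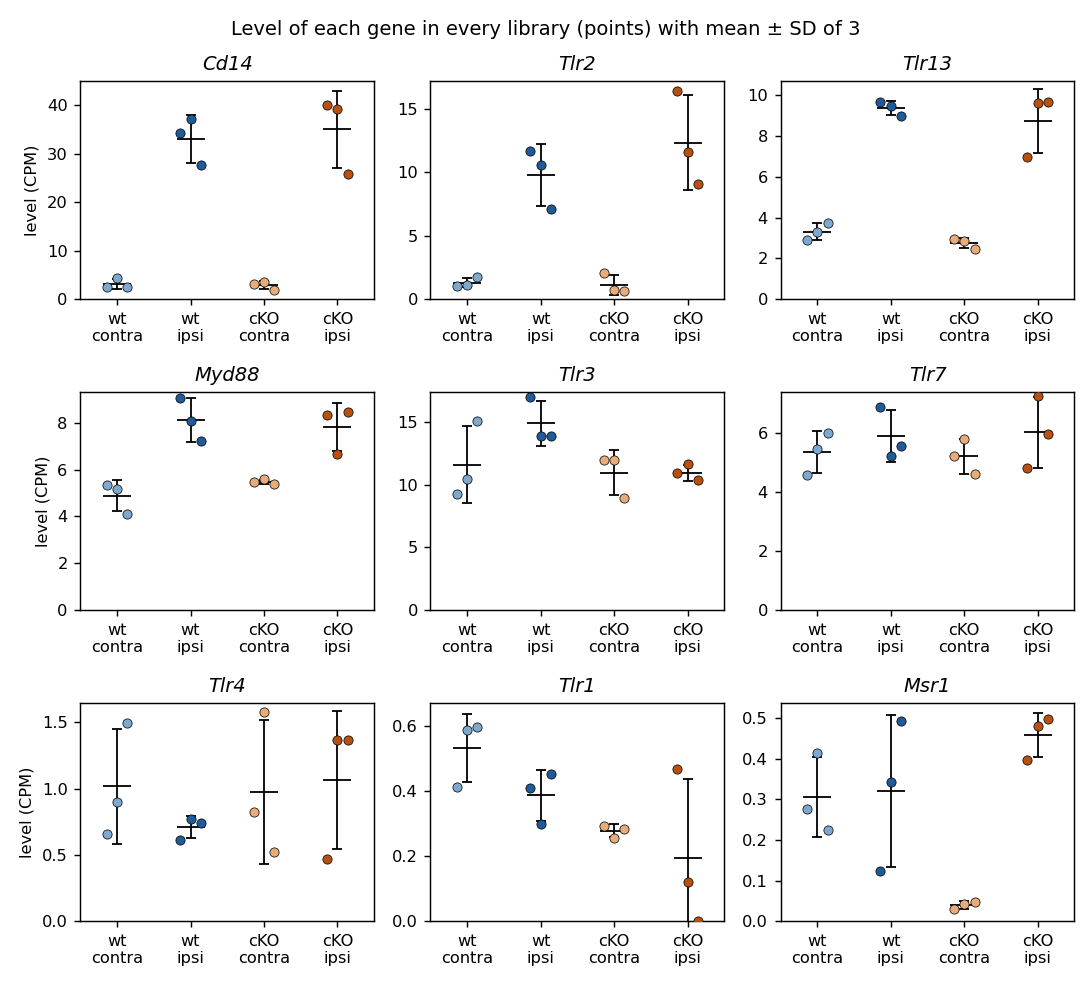
Level of each of the 9 genes in every library, in CPM on a linear axis that starts at 0, by group of genotype and side (points: 3 libraries per group, with the mean and bars of 1 SD). For Cd14, Tlr2 and Tlr13 all 6 ipsilateral points lie above all 6 contralateral ones, while the Tlr1, Tlr4 and Tlr7 points overlap between sides.

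Among the endosomal receptors, Tlr13 rose in both genotypes and Tlr3 and Tlr7 were not called in either. Tlr13 binds a conserved stretch of bacterial ribosomal RNA in mouse endosomes (ENSMUSG00000033777, chromosome X, 106143204 to 106160493, plus strand). It held 2.9, 3.32 and 3.74 CPM in wt contralateral and 9.67, 9.48 and 9.01 CPM in wt ipsilateral libraries. In cKO it held 2.94, 2.86 and 2.48 CPM contralaterally and 6.96, 9.61 and 9.7 CPM ipsilaterally. No library overlapped between sides. The ipsilateral mean was 9.39 ± 0.34 CPM in wt and 8.76 ± 1.56 CPM in cKO (SD, n = 3). The log2 difference was 1.5 ± 0.15 in wt (adjusted p = 2.23e-05) and 1.64 ± 0.16 in cKO (adjusted p = 1.28e-05).

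Tlr7, the endosomal sensor of single-stranded RNA, lies on the same chromosome (ENSMUSG00000044583, X, 167304929 to 167330558, minus strand). It held 4.59, 5.46 and 5.99 CPM in wt contralateral and 6.88, 5.24 and 5.55 CPM in wt ipsilateral libraries, with overlap. In cKO it held 5.22, 5.8 and 4.62 CPM contralaterally and 4.83, 7.25 and 5.97 CPM ipsilaterally, also with overlap. The log2 difference was 0.14 ± 0.17 in wt (adjusted p = 0.769) and 0.20 ± 0.18 in cKO (adjusted p = 0.652).

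Tlr3, the sensor of double-stranded RNA, is found in astrocytes as well as in microglia (ENSMUSG00000031639, chromosome 8, 45395665 to 45411080, minus strand). It held 9.25, 10.4 and 15 CPM in wt contralateral and 16.9, 13.8 and 13.8 CPM in wt ipsilateral libraries, and the sides overlapped through contralateral library 3. In cKO it held 11.9, 12 and 8.91 CPM contralaterally and 10.9, 11.6 and 10.3 CPM ipsilaterally. The log2 difference was 0.36 ± 0.16 in wt (adjusted p = 0.327) and 0.00 ± 0.17 in cKO. Without wt contralateral library 3 the wt difference was 0.59 and passed the threshold (adjusted p = 0.0279). The lack of a call with all libraries thus rested on that library. The antisense transcript Gm45542 overlaps Tlr3 and held 0 to 1 counts per library.

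Myd88 encodes the adaptor that most of these receptors share (ENSMUSG00000032508, chromosome 9, 119335934 to 119341411, minus strand). It held 5.35, 5.18 and 4.12 CPM in wt contralateral and 9.05, 8.07 and 7.2 CPM in wt ipsilateral libraries. In cKO it held 5.46, 5.58 and 5.38 CPM contralaterally and 8.32, 6.65 and 8.46 CPM ipsilaterally. Ipsilateral and contralateral libraries did not overlap in either genotype. The log2 difference passed the threshold in wt (0.73 ± 0.14, adjusted p = 0.00912) and did not in cKO (0.50 ± 0.15, adjusted p = 0.102). The difference between these responses was itself tested and was −0.23 ± 0.20 (95% interval −0.66 to 0.20), so the genotypes were not shown to differ. With limma on log2(TPM + 1) the wt difference was 0.44 and was not called (adjusted p = 0.253). Myd88 shares exonic sequence with Acaa1a on the opposite strand. How the counting treated strand is not given in the sources used here, so reads of the shared stretch cannot be told apart. Acaa1a itself differed by 0.07 ± 0.08 in wt (adjusted p = 0.749) and 0.09 ± 0.08 in cKO (adjusted p = 0.670).

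Promoter sequence was read for the 3 called genes that had one in the RefSeq table (GRCm38.p6). Of the 9 genes, 5 were matched there (Tlr1, Tlr2, Tlr3, Tlr13 and Myd88). The printed sequences cover only bases upstream of the RefSeq start that lie in no annotated exon of the gene, from 250 bases upstream, on the sense strand, with capitals marking a motif match. They are shown as the sequence upstream of the RefSeq start of called genes, and no test here ties sequence to response. The Myd88 stretch lies inside the GENCODE span of that gene (119335934 to 119341411), so it is upstream of the RefSeq start only.
Tlr2, chr3:83841768-83841858, minus strand: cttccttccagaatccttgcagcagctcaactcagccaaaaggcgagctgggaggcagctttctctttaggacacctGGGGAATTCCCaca
Myd88, chr9:119340042-119340268, minus strand: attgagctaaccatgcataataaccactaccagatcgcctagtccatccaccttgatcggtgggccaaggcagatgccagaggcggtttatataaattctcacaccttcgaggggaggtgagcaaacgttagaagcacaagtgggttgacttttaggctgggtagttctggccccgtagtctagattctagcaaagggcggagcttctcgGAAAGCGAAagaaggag
Tlr13, chrX:106143025-106143203, plus strand: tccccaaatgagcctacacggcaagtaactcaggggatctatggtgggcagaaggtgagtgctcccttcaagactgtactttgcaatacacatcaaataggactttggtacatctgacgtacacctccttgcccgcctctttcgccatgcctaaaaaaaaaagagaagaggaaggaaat

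The Tlr2 stretch held a pair of overlapping matches to the NF-kB motif, from 173 to 163 bases upstream of the RefSeq start (83841608). In GENCODE the gene starts farther upstream (83841767), so these matches lie closer to that start. The Myd88 stretch held a match to the core of the interferon-stimulated response element (ISRE, GAAANNGAA). No searched motif was found in the Tlr13 stretch. The search read both strands for the NF-kB motif, the AP-1 site (TGANTCA), the cyclic AMP response element (CRE, TGACGTCA), the PU.1 site (GAGGAAGT) and the ISRE core. Over the 32851 promoters of the table, in the 250 bases upstream, these were found in 7.25%, 6.75%, 1.55%, 2.44% and 7.13%. A match is a stretch of letters and shows no binding, and the lack of one says only that these letters are not in this window. Among the genes that were not called, Tlr3 had an NF-kB match that lay in annotated exons, and Tlr1 had a PU.1 match 23 to 16 bases upstream of a start, outside annotated exons. Neither stretch is printed.

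Msr1, a scavenger receptor of macrophages that takes up modified lipoproteins and cell debris, was the least abundant of the 9 in 2 of the 4 groups. The gene (ENSMUSG00000025044, chromosome 8, 39581685 to 39642673, minus strand) held 8, 12 and 6 counts in wt contralateral and 3, 8 and 12 in wt ipsilateral libraries, with overlap. In cKO it held 1, 1 and 1 counts contralaterally and 11, 12 and 4 ipsilaterally, with no overlap. The cKO difference passed the threshold (adjusted p = 0.00853) on 27 against 3 counts, a ratio of 11.6 after scaling for depth with a 95% counting interval of 3.58 to 59.9. The wt difference was 0.06 ± 0.47. The cKO call rested on few counts: without cKO contralateral library 1 the adjusted p was 0.0785, and without cKO ipsilateral library 2 it was 0.0509. A stricter filter (1 CPM in 3 libraries and 100 counts in all) removed the gene.

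**Figure D2:**
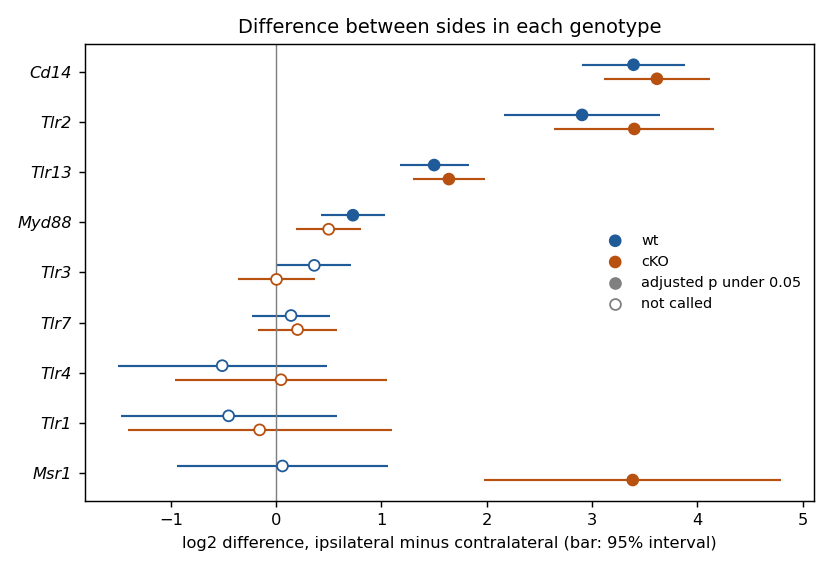
Ipsilateral minus contralateral log2 difference of each of the 9 genes in wt and cKO by edgeR's quasi-likelihood test, with 95% intervals and filled points for adjusted p under 0.05. Cd14 and Tlr2 lie near or above 3, Tlr13 near 1.5 and Myd88 under 1. The fitted Msr1 point in cKO rests on 3 contralateral counts and depends on the prior count of the fit.

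On the scale of TPM, which allows levels of different genes to be compared, the order of the 9 differed between the sides. In wt contralateral cortex the mean TPM was 5.71 for Tlr3, 4.32 for Myd88, 4.10 for Cd14, 3.09 for Tlr7, 1.34 for Tlr13, 0.73 for Tlr2, 0.41 for Tlr4, 0.31 for Tlr1 and 0.20 for Msr1. Neighbours in that order overlapped between libraries, except for the steps from Tlr7 to Tlr13 and from Tlr13 to Tlr2. In wt ipsilateral cortex Cd14 led with 36.1 TPM, clear of Myd88 at 6.25, Tlr3 at 5.86 and Tlr2 at 4.76, whose libraries overlapped. Tlr13 followed at 3.28 TPM. Tlr7, at 2.24 TPM, now lay under Tlr13, and the 2 did not overlap on either side. Tlr4, Msr1 and Tlr1 stayed at 0.243, 0.223 and 0.20 TPM and overlapped one another.

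In cKO the order differed from wt in places. On the contralateral side the mean was 4.92 TPM for Myd88, 4.83 for Tlr3, 3.58 for Cd14, 3.46 for Tlr7, 1.12 for Tlr13, 0.62 for Tlr2, 0.45 for Tlr4, 0.163 for Tlr1 and 0.0767 for Msr1. On the ipsilateral side Cd14 led with 40.9 TPM, followed by Myd88 at 6.84, Tlr2 at 6.63, Tlr3 at 6.13, Tlr7 at 3.64, Tlr13 at 3.47, Tlr4 at 0.59, Msr1 at 0.38 and Tlr1 at 0.11 TPM. Tlr7 and Tlr13 overlapped there, and the wt step between them was not seen. TPM values of a library share a fixed total, and cKO ipsilateral library 3 held 10548 TPM of Bc1, against 83028 to 167036 TPM elsewhere. How far this moved the TPM of other genes was not tested. Over all genes that averaged 1 TPM or more, log2(TPM + 1) moved the median wt injury difference by −0.18 and the median ipsilateral genotype difference by 0.16, relative to the scaled counts.

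**Figure D3:**
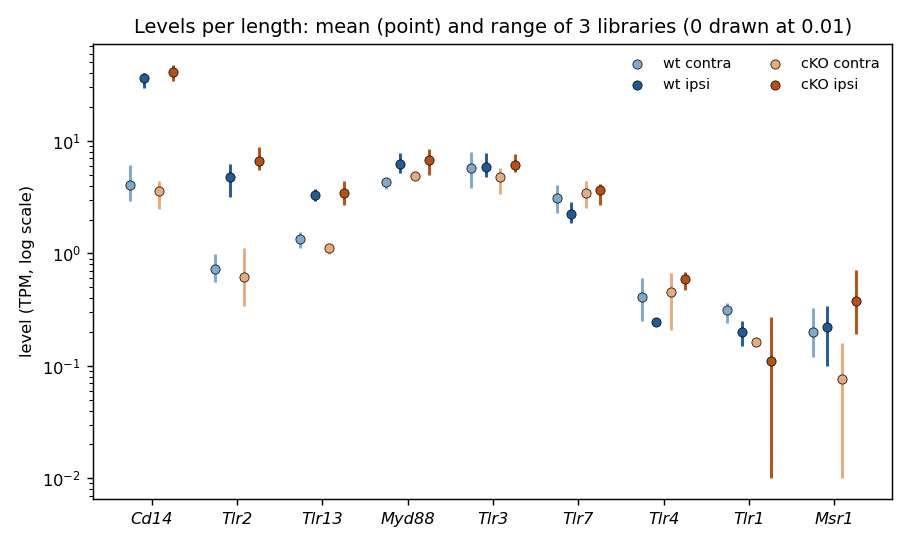
Level of each of the 9 genes in the 4 groups, in TPM on a log scale (point: mean of 3 libraries, line: their range, a value of 0 drawn at 0.01). By mean, Cd14 moves from behind Tlr3 and Myd88 in each contralateral group to the top of each ipsilateral group. It reaches 36.1 TPM in wt and 40.9 TPM in cKO. On the contralateral side its range overlaps that of Tlr3 in both genotypes and that of Myd88 in wt.

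Between the genotypes, none of the 9 genes was called on either side, and none was called for a difference in its injury response. Over all 16836 genes edgeR called 0 (0%) in each of these 3 comparisons. Of the 9 genes, 1 had an unadjusted p under 0.05 in each of them, and DESeq2 called 0 of the 9 as well. The limma test covered only genes averaging 1 TPM or more, so not Tlr1, Tlr4 or Msr1, and called none of the others. Across all genes the number with an unadjusted p under 0.05 was 987 for ipsilateral cortex, 455 for contralateral cortex and 381 for the interaction of genotype and side, and DESeq2 called 12, 3 and 0 of all genes.

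The gene with the small p on the ipsilateral side was Tlr3, at 10.9 ± 0.646 CPM in cKO against 14.9 ± 1.79 CPM in wt (SD, n = 3), with no overlap. Its log2 difference was −0.43 ± 0.17 (unadjusted p = 0.0234, adjusted p = 0.775). With limma on log2(TPM + 1) the value was 0.07, the opposite direction. On the contralateral side the gene was Msr1, with 3 counts in cKO against 26 in wt, and a ratio of wt to cKO of 8.04 (95% counting interval 2.46 to 41.5, adjusted p = 1). The same 3 counts enter its difference of responses (unadjusted p = 0.00118). Msr1 levels in ipsilateral cortex overlapped between the genotypes.

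For the genes that rose in both genotypes, the difference of responses (log2, cKO minus wt) was no larger than its standard error: 0.22 ± 0.33 for Cd14, 0.50 ± 0.51 for Tlr2 and 0.14 ± 0.22 for Tlr13. The Tlr2 value was 1.36 without cKO contralateral library 1 and was not called there either. The wt and cKO responses use separate libraries, but each shares its contralateral libraries with the contralateral genotype comparison and its ipsilateral ones with the ipsilateral comparison.

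None of the remaining Toll-like receptors was called. Tlr5, Tlr6, Tlr9 and Tlr12 were tested, and 0 of 4 passed in either genotype. Their wt log2 differences were −0.03 ± 0.50, 0.62 ± 0.40, 0.04 ± 0.26 and −0.40 ± 0.40, and the cKO ones 0.50 ± 0.58, 0.51 ± 0.40, 0.49 ± 0.28 and 0.50 ± 0.47. Tlr9, the endosomal DNA sensor, was the most abundant of them at 0.803 to 0.89 TPM in wt. Tlr8 held 0 to 4 counts per library and Tlr11 held 0 in all 12, and neither was tested.

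Of 21 adaptors and kinases that carry the signal onward, 3 rose in wt and 2 in cKO, and none was called lower. Map3k8 (TPL2), a kinase that links these receptors to ERK, rose by 2.18 ± 0.26 in wt (adjusted p = 0.00011) and 1.57 ± 0.26 in cKO (adjusted p = 0.00268) on the log2 scale. Irf5, a transcription factor downstream of Myd88, rose by 1.16 ± 0.21 in wt and 0.94 ± 0.21 in cKO (adjusted p = 0.00501 and 0.021). Irf5 lost the cKO call without contralateral library 1 or 3 or without ipsilateral library 1 or 2. Ticam1, the adaptor of Tlr3, was called in wt alone (0.51 ± 0.12, adjusted p = 0.0315, against 0.26 ± 0.12 and 0.345 in cKO), and the difference between its responses was −0.25 ± 0.17 (adjusted p = 0.99987). Its wt call was lost under 7 of the alternatives, which included leaving out wt library 1 or 2 of either side.

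Of 15 accessory and trafficking proteins, such as the subunits that hold ligands or move receptors to endosomes, only Cd180 was called. Cd180 resembles the outer part of Tlr4, and it rose by 1.67 ± 0.19 in wt and 1.38 ± 0.20 in cKO (adjusted p = 7.91e-05 and 0.000726). Its mean level went from 1.58 to 5.01 CPM in wt and from 1.58 to 3.98 CPM in cKO.

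Among 15 tested inhibitors of these pathways, 5 rose in each genotype and none was called lower. Zc3h12a, an RNase that cuts cytokine messenger RNA, rose by 2.92 ± 0.18 in wt and 2.96 ± 0.18 in cKO. Tnfaip3 (A20), a ubiquitin-editing brake on NF-kB, rose by 2.23 ± 0.15 and 2.33 ± 0.15, and the MAP kinase phosphatase Dusp1 by 1.25 ± 0.12 and 1.26 ± 0.12. The other two were Pik3ap1 (0.86 ± 0.17 and 1.17 ± 0.17) and the NF-kB inhibitor Nfkbia (0.78 ± 0.15 and 0.99 ± 0.16), both named after their values were seen. All 5 had an adjusted p of at most 0.00969 in both genotypes. Without wt ipsilateral library 2 the wt calls of Pik3ap1 and Nfkbia were lost, as was that of Pik3ap1 without wt contralateral library 2.

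The other scavenger and pattern receptors gave 7 genes higher and 1 lower of 22 tested in wt, and 6 higher in cKO. The inflammasome sensor Nlrp3 rose by 3.77 ± 0.30 in wt (from 1.01 to 13.7 CPM) and by 4.06 ± 0.33 in cKO (from 0.718 to 11.7 CPM). Trem1 and Clec4d, receptors of neutrophils and monocytes, were called in both genotypes from a contralateral level at or near 0. Trem1 held 1 count in the 3 wt contralateral libraries together and 86 in the ipsilateral ones, and 2 and 146 in cKO. Clec4d held 4 and 55 counts in wt, and 1 and 115 in cKO. The gene called lower in wt was the scavenger receptor Stab1, which fell by 0.56 on the log2 scale (SE 0.14, adjusted p = 0.039). In cKO its difference was −0.44 ± 0.14 (adjusted p = 0.149), and it was called there with no filter (adjusted p = 0.0336) and without both libraries that stood apart (adjusted p = 0.0455). In wt it lost the call under 7 alternatives, among them leaving out wt library 1 or 2 of either side, cKO contralateral library 1 or cKO ipsilateral library 2. Trem1 is also on the list of neutrophil markers.

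Among 12 tested proteins that can act as endogenous ligands of Tlr2 or Tlr4, 4 rose in each genotype and none was called lower. They were S100a9 (4.93 ± 0.52 in wt, 6.11 ± 0.54 in cKO), its partner S100a8 (4.37 ± 0.71 and 5.02 ± 0.70, named after its values were seen, and 7.04 in wt without contralateral library 2), and the heat shock proteins Hspa1b (1.66 ± 0.23 and 2.10 ± 0.22) and Hspa1a (1.54 ± 0.23 and 2.14 ± 0.23). Hspa1a and Hspa1b are near-identical genes, so their separate values are uncertain. S100a8 and S100a9 are also neutrophil markers.

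Of 16 tested cytokine, chemokine and adhesion genes known as targets of these receptors, 12 rose in wt and 13 in cKO, with none called lower. Nfkbiz, which encodes an NF-kB cofactor, rose by 3.07 ± 0.15 and 2.91 ± 0.15, and the cytokine Il1b by 4.01 ± 0.28 and 4.98 ± 0.30. The adhesion molecule Icam1 rose by 2.98 ± 0.23 in wt and 3.36 ± 0.23 in cKO. The chemokine Ccl4 was also called in both genotypes, with 35 counts in the 3 wt contralateral libraries together and 1305 in the ipsilateral ones, and 6 and 1112 in cKO. Its fitted wt difference of 5.44 ± 0.41 ran from 4.84 without contralateral library 1 to 6.35 without contralateral library 2. The median log2 difference of this list was 3.33 in wt and 4.38 in cKO, beside −0.01 over all genes.

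**Figure D4:**
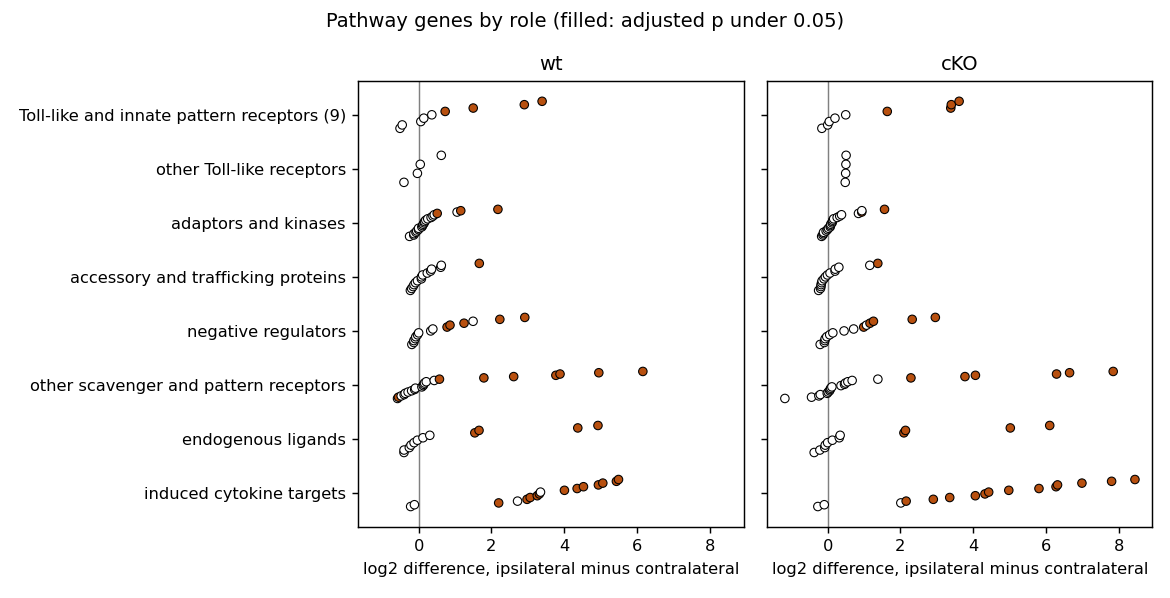
Log2 injury difference in wt and cKO for the genes of the 9 and of each pathway list, 1 point per tested gene, filled where adjusted p was under 0.05. The list of cytokine targets lies mostly to the right of 0, with 12 of 16 called in wt. Adaptors and kinases cluster around 0, with 3 of 21 called. Fitted values of genes near 0 counts on the contralateral side depend on the prior count of the fit.

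Markers of other cells moved along with the receptors. The summed level of 13 neutrophil markers was 5.35 to 5.52 CPM in wt contralateral and 17.1 to 39.2 CPM in wt ipsilateral libraries, and 6.48 to 12.1 and 25.4 to 69.1 CPM in cKO. The contralateral sum, at a mean of 5.43 CPM in wt and 8.57 CPM in cKO, was mostly Csf3r and Lcn2. Csf3r averaged 4.04 CPM in wt and 4.08 CPM in cKO there, and Lcn2 0.749 ± 0.243 and 3.67 ± 3.5 CPM (SD, n = 3). Both were named after their values were seen. Of the 9 neutrophil markers tested, 8 were called higher in each genotype. Mmp8 and Ly6g were at 0 in both contralateral groups and Camp in that of wt. Because whole cortex was sequenced, more cells of a type and more RNA per cell cannot be told apart, and the part of neutrophils in the rise of Cd14, Tlr2 and Tlr13 was not tested.

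Markers of the resident cells were also measured. The sum of 12 microglial markers was 385 to 398 CPM in wt contralateral and 362 to 435 CPM in wt ipsilateral libraries, and 360 to 389 and 323 to 404 CPM in cKO. None of the 12 was called higher in either genotype, though 7 differences in wt and 6 in cKO were above 0. Tmem119 was called lower in both, by 0.71 on the log2 scale in wt (SE 0.13, adjusted p = 0.00564). In cKO it was lower by 0.69 (SE 0.13, adjusted p = 0.00797, a call that was lost without cKO ipsilateral library 1). Of 8 tested markers of monocytes and border macrophages, 0 were called, and the sum of all 12 on that list was 80.1 to 116 CPM across the 12 libraries. That sum is mostly Fn1, at a mean of 77.5 to 84.6 CPM per group, and says little of blood monocytes. Of their markers, Ccr2 held 6 counts in the 3 wt contralateral libraries together and 10 in the ipsilateral ones, and 2 and 16 in cKO. Plac8 held 4 and 21 counts in wt and 6 and 27 in cKO, and Ly6c2 4 and 15 in both genotypes. Chil3 held 5 and 6 counts in wt and 6 and 12 in cKO. Ccr2, Plac8, Ly6c2 and Chil3 were too low to be tested, and with Fn1 they were named after their values were seen. Of the 8 tested markers on this list, 2 had a log2 difference above 0 in wt and 4 in cKO. The sum of 7 astrocyte markers was 1909 to 1940 CPM in wt contralateral and 2090 to 2342 CPM in wt ipsilateral libraries, and 1814 to 2027 and 2127 to 2361 CPM in cKO, with no overlap between sides. Of these markers 1 was called higher in each genotype, as was 1 of 6 endothelial markers. The 6 neuronal markers gave 1 call, lower in cKO, where their sum was 5622 to 5880 CPM contralaterally. The sum of 4 B cell markers was 0.235 to 0.725 CPM in contralateral and 1.11 to 3.04 CPM in ipsilateral libraries. Only 1 of these 4 passed the filter, and edgeR called it in neither genotype (adjusted p = 0.138 in wt and 0.211 in cKO). The part of these cells in the results was not tested.

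Genes whose pattern over the 12 libraries was closest to each called receptor were found by the root mean square difference of log2 CPM, each gene being centred on its own mean, among the 14496 genes that averaged 1 CPM or more. For Cd14 they were the complement receptor C5ar1 (0.37), Icam1 (0.372) and the urokinase receptor Plaur (0.391), beside a standard deviation of 1.85 for Cd14 itself. For Tlr2 they were Icam1 (0.419), Rab20 (0.486) and the complement receptor C3ar1 (0.487), beside 1.74 for Tlr2. Cd14 and Tlr2 thus had Icam1 in common. Tlr13 was nearest to Nr4a1 (0.178), Csrnp1 (0.18) and Mafk (0.193), which encode transcription factors, beside 0.83 for Tlr13. Myd88 was nearest to Nfil3 (0.114), the clock gene Per1 (0.143) and the lamin gene Lmna (0.155), beside 0.35 for Myd88. Msr1, at its low counts, was nearest to BC037039 (0.543), Mpzl2 (0.577) and the protease gene Mmp9 (0.588), beside 0.92. These are descriptions over libraries that share the contrast of sides.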

How the data were processed

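The authors trimmed reads with Trim Galore 0.6.4, aligned them to mm10 with STAR 2.7.1a and made gene-level estimated counts with RSEM 1.2.28, per the submitters' processing notes, which also name DESeq2 1.36.0. The deposited estimated counts are whole numbers, and the deposited TPM values of the same libraries were used to compare levels between genes. The annotation is not given in the sources used here. Libraries were made with a stranded mRNA kit, per the labels' protocols. Of 55487 identifiers, 55141 (99.4%) matched GENCODE M21.

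Tests were run in edgeR 4.0.16, with DESeq2 1.42.0 and limma 3.58.1 as alternatives (R 4.3.3). filterByExpr (minimum count 10, minimum total 15) kept 16836 genes holding at least 99.9% of each library. TMM factors scaled the libraries, and a single quasi-likelihood fit covered the 4 groups, with Benjamini-Hochberg adjustment over all genes and a threshold of 0.05. CPM was taken on TMM-scaled totals, and a prior count of 2 entered log2 CPM only. The quasi-likelihood fit was run at edgeR's default prior count, a separate setting. SE is the log2 difference divided by the root of F.

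The 9 genes, the lists and the tests were chosen with earlier results of these data known. Named were the 9 genes, Tmem173, all other Toll-like receptors, up to 3 called genes with the smallest adjusted p per list and injury response, and the 3 nearest genes of each called receptor. Alternatives were DESeq2 size factors, library totals, no filter, a strict filter, the DESeq2 test, limma on log2(TPM + 1) for genes averaging 1 TPM or more, leaving out each library in turn, a replicate block, the compared groups only, and both libraries that stood apart left out. The code was tested on simulated counts.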

Additional observations from a re-analysis of the deposited data

How the results depend on the processing

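Over the alternatives the number of the 9 genes called was 3 to 5 in wt, 3 to 4 in cKO and 0 in the other comparisons. Cd14, Tlr2 and Tlr13 kept direction and call in both genotypes under every alternative that tested them. Of 905 alternative values for the 9 genes, 847 kept direction and side of the threshold, 3 lost the call, 2 gained it and 53 changed sign, 0 of them in a called result; the cause was not tested. Without both libraries that stood apart (cKO ipsilateral 3, wt contralateral 3) these differences changed sign: Msr1 to −0.11 in wt; Tlr1 to 0.10 and Tlr4 to −0.10 in cKO; Tlr2 to 0.12, Tlr3 to 0.16, Tlr4 to 0.32 and Tlr7 to 0.055 between genotypes contralaterally; and Tlr7 to −0.024 and Tlr13 to −0.018 in the difference of responses. Tlr3 then gained its wt call (0.59, adjusted p = 0.0298). With limma on log2 TPM, Tlr7 was −0.33 in wt and Stab1 0.13 in cKO, Tlr3 0.069, Tlr13 0.0498 and Myd88 0.10 between genotypes ipsilaterally, Tlr7 0.13 contralaterally and Tlr3 0.25 in the difference of responses. The same test lost the wt calls of Myd88, Irf5, Ticam1, Clec4d, Stab1, Pik3ap1 and Nfkbia and the cKO calls of Irf5 and Nfkbia. With library totals, Tlr3 was −0.016 in cKO and Tlr9 −0.0033 in wt. The replicate block turned Tlr4 in cKO to −0.0035 and left 4 genes called in each genotype (Myd88 0.73, adjusted p = 0.00934 in wt and 0.49, 0.102 in cKO). After group means were removed, wt libraries of equal number correlated between sides at −0.002, 0.0941 and 0.0457. The cKO ones did so at 0.0705, 0.092 and 0.0568. Of the 6 ipsilateral libraries, 5 correlated best with the contralateral library of their own number. The labels do not state which libraries share an animal, so the numbers were not taken as pairs. These correlations do not settle whether they are, and pairing of sides within each genotype was not tested.

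Leaving out 1 library at a time, the injury difference ranged from −0.39 to 0.45 for Msr1, −0.48 to 0.24 for Tlr5 and −0.11 to 0.21 for Tlr9 in wt. In cKO it ranged from −1.61 to 0.24 for Tlr1, −0.12 to 0.073 for Tlr3, −0.34 to 0.54 for Tlr4 and −0.42 to 0.19 for Ly96. Between genotypes ipsilaterally it ranged from −0.17 to 0.19 for Tlr7, −0.22 to 0.039 for Tlr13, −0.013 to 0.26 for Cd14 and −0.15 to 0.043 for Myd88. Contralaterally it ranged from −0.99 to 0.13 for Tlr2, −0.21 to 0.16 for Tlr3, −0.55 to 0.32 for Tlr4, −0.13 to 0.055 for Tlr7 and −0.24 to 0.19 for Cd14. The difference of responses ranged from −1.16 to 0.69 for Tlr1, −0.13 to 0.22 for Tlr7 and −0.087 to 0.38 for Cd14. Over all genes, with no filter edgeR called 223 between genotypes ipsilaterally, 96 contralaterally and 72 in the difference of responses, where the filter left 0. In the injury responses (491 in wt, 461 in cKO), limma called 131 and 184, no filter 991 and 968, DESeq2 766 in wt, and the fit without both libraries that stood apart 968 in wt (209 lower, against 31). Calls among the other scavenger and pattern receptors ranged from 1 to 9 in wt and 2 to 8 in cKO, and among adaptors and kinases from 1 to 4 and 1 to 2. At 0 to 40 counts per library, differences of Tlr1, Tlr4 and Msr1 are the least precise.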
